A study of Mus musculus with 20 samples.

Results

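The comparison described here sets mice that lack the glucocorticoid receptor in cells expressing connexin 30 against control mice, both killed after an injection of dexamethasone (Dex). It takes 10 of the 20 arrays of the study: the 5 titled Tg DEX and the 5 titled wt DEX, each chosen by its title. RNA from the spinal cord of C57BL/6J mice, 6 to 10 weeks old, was hybridised to Affymetrix whole-transcript arrays. The Tg DEX group is Cx30GRko mice given 4 mg/kg Dex into the peritoneum, and the wt DEX group is control mice given the same injection. The other 10 arrays are Cx30GRko mice given saline (Tg SAL) and control mice given saline (wt SAL), and they enter the estimate of the spread and the comparison with saline. All tissue was taken 4 h after the injection. The design gives 5 mice per group. The arrays titled Tg were read as Cx30GRko and those titled wt as control. Recombination by Cre was described as most efficient in this tissue, but the sources used here do not give the alleles that the controls carry or when Cre was active.

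The glucocorticoid receptor, encoded by Nr3c1, is a nuclear receptor held in the cytoplasm by chaperones. When it binds a steroid it enters the nucleus, binds DNA, and raises or lowers transcription of nearby genes. Among its best known targets in many tissues are Fkbp5, whose product lowers the receptor's affinity for hormone, Tsc22d3, which encodes an anti-inflammatory leucine zipper protein, the clock gene Per1 and the kinase gene Sgk1. Connexin 30, encoded by Gjb6, is a gap junction protein of astrocytes. Astrocytes take up glutamate and potassium and supply neurons with lactate. Most other cell types of the cord also carry the receptor and respond to Dex themselves. In RNA from whole cord, fewer cells of a type and less RNA per cell cannot be told apart.

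No gene differed between Tg DEX and wt DEX arrays after adjustment for the number of genes. The test was limma's moderated test on log2 signal, with the array set as block and p-values adjusted by the Benjamini-Hochberg method over 22180 genes. It called 0 genes (0%) at an adjusted p under 0.05, and the smallest adjusted p was 0.502. An unadjusted p under 0.05 was reached by 2169 genes (9.78%), of which 1301 (5.87%) were higher and 868 (3.91%) lower in Tg DEX arrays. Limma also called 0 genes in replicates 1 to 3 alone, where the smallest adjusted p was 0.201 and 1061 genes (4.78%) had an unadjusted p under 0.05. In replicates 4 and 5 alone it called 0, and 3230 genes (14.6%) had an unadjusted p under 0.05, 9.14% on the higher and 5.42% on the lower side. The same genotype comparison under saline gave 0 calls, and an unadjusted p under 0.05 for 985 genes (4.44%). The interaction, which tests the genotype difference under Dex against that under saline, gave 0 calls, and an unadjusted p under 0.05 for 1090 genes (4.91%), 2.51% more positive under Dex and 2.4% more negative. For a typical gene the 95% interval of the Tg DEX minus wt DEX difference reached 0.42 log2 to either side over all arrays and 0.36 in replicates 1 to 3.

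The arrays fall into a set of replicates 1 to 3 (12 arrays) and a set of replicates 4 and 5 (8 arrays), within each of which the deposited values had been centred for every probe set. What sets them apart is not stated in the labels. The spread within groups was larger in replicates 4 and 5, with a median residual SD of 0.37 log2 against 0.21 in replicates 1 to 3. Tg DEX arrays 4 and 5 stood apart from all others, with SDs of 1.95 and 1.81 over probe sets against 1.66 to 1.71 for the other 18 arrays. Without this pair limma called 0 genes, and 454 had an unadjusted p under 0.05. Differences by set are given below with replicates 1 to 3 first and replicates 4 and 5 second.

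Among the genes named below are 5 microRNA genes, which were measured by whole-transcript probe sets. The sources used here do not say whether these probe sets read the mature RNA, its hairpin or a longer transcript. Their mature sequences, from RefSeq on GRCm38.p6, are shown to identify them, with the seed (bases 2 to 8) in capitals. All 7 sequences have different seeds.
mmu-miR-1933-3p: cCAGGACCaucagugugacuau
mmu-miR-1933-5p: aGUCAUGGuguucggucuuaguuu
mmu-miR-3070-2-3p: uGGUGCUAuggucagggguaga
mmu-miR-3070-5p: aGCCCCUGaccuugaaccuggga
mmu-miR-3961: uGCCCUCAgcucaguugga
mmu-miR-5098: gUUACAUGgugaagcccaguu
mmu-miR-2137: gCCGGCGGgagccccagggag
The 3p and 5p forms of miR-1933 lie at chr11:21344600-21344621 and chr11:21344640-21344663 on the minus strand, within the span of Ugp2. Those of Mir3070b lie at chr12:109588648-109588669 and chr12:109588608-109588630 on the plus strand, within the span of Rtl1. The sequence of miR-3961 is at chr13:82698278-82698296 on the minus strand, in no other gene's span. The sequence of miR-5098 is at chr5:77272767-77272787 on the plus strand within the span of Rest, and that of miR-2137 at chrX:72992113-72992133 on the plus strand within the span of Zfp185. Whether they lie in exons or introns of these genes was not analysed here.

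The targeted gene did not have a lower mean signal in Tg DEX arrays. Nr3c1 had signals of 6.29, 6.08, 6.17, 7.79 and 6.62 log2 in Tg DEX arrays 1 to 5, against 6.30, 6.11, 6.27, 6.24 and 6.18 in wt DEX arrays. The 3 Tg DEX arrays of the first set lay within or just below the range of wt DEX, and Tg DEX array 4 stood far above every other. The Nr3c1 difference was 0.37 ± 0.27 log2 (SE, n = 5 per group; 95% interval -0.19 to 0.92; limma adjusted p = 0.646), with -0.05 in replicates 1 to 3 against 0.99 in replicates 4 and 5. Whether the probes of Nr3c1 lie in the part of the gene that Cre removes is not given, so this probe set is a weak check of the labels. Gjb6, the gene whose promoter names the mouse line, had signals of 6.44, 6.37, 6.58, 6.62 and 6.32 in Tg DEX arrays, against 6.76, 6.38, 6.29, 7.06 and 5.80 in wt DEX arrays. The groups overlapped throughout, and the difference of Gjb6 was 0.01 ± 0.19 (95% interval -0.38 to 0.40; adjusted p = 0.992), with -0.01 and 0.04 by set.

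For genes that respond to Dex in many tissues no genotype difference passed the test, and the intervals leave room for moderate ones. Fkbp5 had signals of 6.56, 6.87, 6.99, 5.96 and 6.80 in Tg DEX arrays, against 7.17, 6.72, 6.59, 6.29 and 5.75 in wt DEX arrays. The Fkbp5 groups overlapped in both array sets, and the difference was 0.13 log2 (95% interval -0.41 to 0.67), with -0.02 and 0.36 by set. Sgk1 had signals of 7.30, 7.10, 7.05, 6.98 and 7.24 in Tg DEX arrays, against 7.11, 7.07, 7.21, 6.94 and 6.93 in wt DEX arrays, a difference of 0.08 (-0.33 to 0.49; 0.02 and 0.18 by set). The Sgk1 groups overlapped in the first set and not in the second, where the lower Tg DEX array was just above both wt DEX arrays. For the related kinase gene Sgk3 the difference was 0.03 (-0.38 to 0.43; -0.10 and 0.22 by set), and for Per1 -0.04 (-0.46 to 0.38; -0.14 and 0.11). Cdkn1a, an inhibitor of cyclin-dependent kinases, had a difference of 0.06 (-0.52 to 0.64; -0.08 and 0.27 by set). Tsc22d3 stood at 0.21 (-0.08 to 0.50; -0.03 and 0.56 by set) and Slc25a13, a mitochondrial aspartate-glutamate carrier gene, at 0.30 (-0.19 to 0.79; -0.06 and 0.84). The smallest adjusted p of these 7 genes was 0.616 in limma, that of Tsc22d3.

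The 38 measured receptor targets were split evenly over all arrays. Their median difference was 0.01 log2, with 19 higher and 19 lower, and over all genes the median was also 0.01, with 52.1% higher. In replicates 1 to 3 the median of the targets was -0.11, with 7 higher and 31 lower, against a median of -0.01 over all genes, of which 10646 were higher and 11534 lower. In replicates 4 and 5 the median was 0.24, with 27 higher and 11 lower, against 0.04 over all genes. With all 20 arrays quantile-normalised again the target median in replicates 4 and 5 was -0.01, with 19 of 38 higher. With cyclic loess it was -0.04, with 18 higher. In replicates 1 to 3 it was -0.10 under both, with 7 higher. Over all arrays the target median was -0.04 with quantile normalization, -0.05 with cyclic loess and -0.06 without Tg DEX arrays 4 and 5. None of the 38 targets was called in any of these comparisons. The Dex effect itself, Dex minus saline, had a median of 0.64 over the 38 targets in Cx30GRko mice and 0.47 in control mice. Both values share their Dex arrays with the genotype comparison. They pool the 2 array sets, in which the median genotype difference of the targets under Dex was -0.11 and 0.24. The order of the 2 Dex effects was not examined by set. They are a description only, since the target list was chosen with earlier results of these data known.

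**Figure D1:**
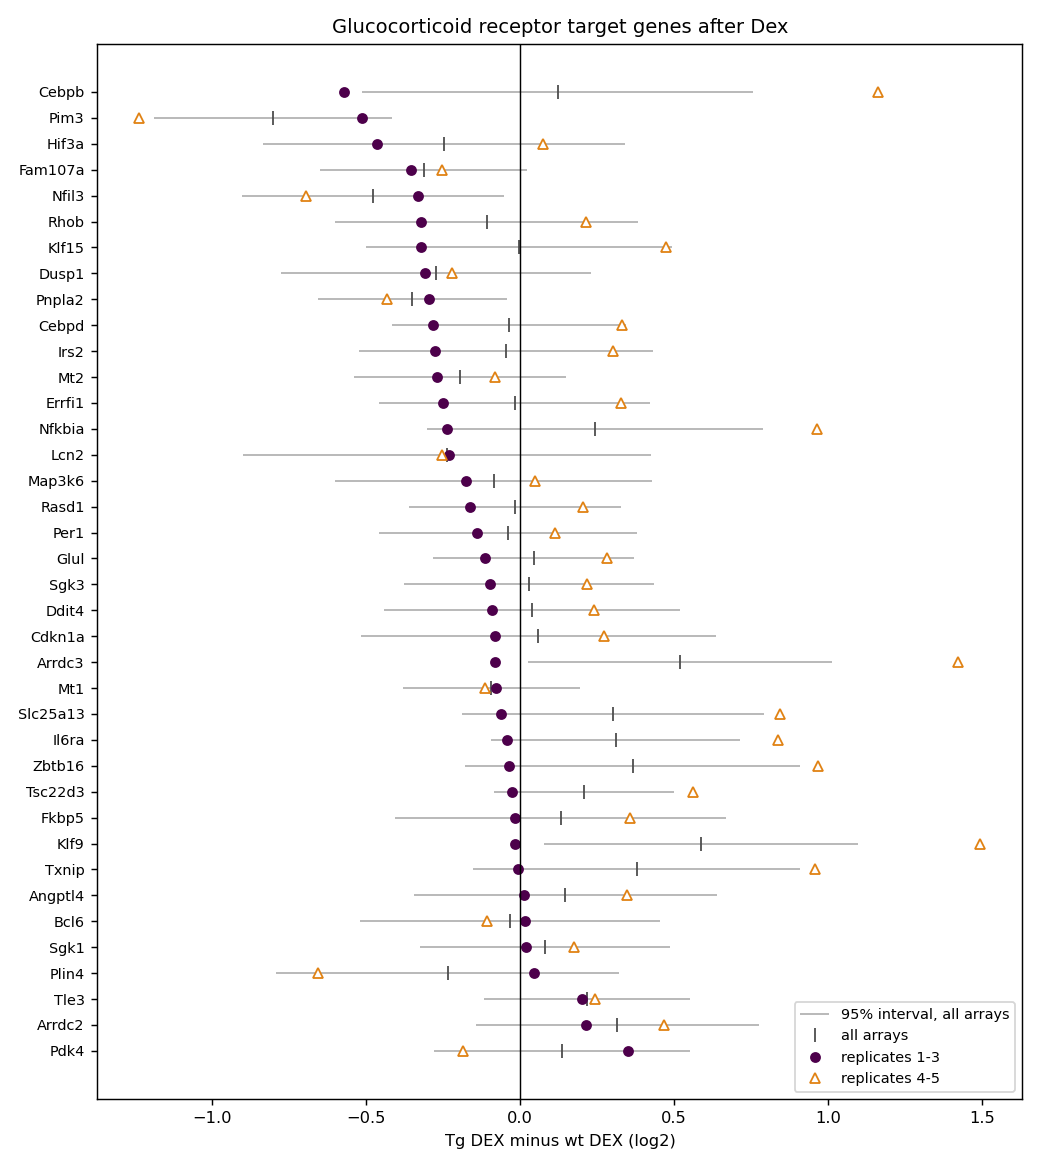
Difference in log2 signal between Tg DEX and wt DEX for the 38 measured glucocorticoid receptor targets, ordered by the value in replicates 1 to 3. Filled circles are replicates 1 to 3, open triangles replicates 4 and 5, and the tick with its grey line is the difference over all arrays with its 95% interval. Of the 38 circles 31 lie below 0, and of the triangles 11 do.

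The target nearest to a difference was Pim3, which encodes a serine/threonine kinase that promotes cell survival. Pim3 had signals of 4.99, 5.02, 4.65, 4.78 and 4.43 in Tg DEX arrays, against 5.09, 5.71, 5.41, 5.54 and 6.15 in wt DEX arrays. All 5 Tg DEX arrays lay below all 5 wt DEX arrays. The difference was -0.80 ± 0.19 log2 (0.57-fold; 95% interval -1.19 to -0.42; unadjusted p = 0.00031 in limma, adjusted p = 0.502), with -0.51 and -1.24 in the sets. Pim3 was the single target whose groups were apart in both array sets in either direction, and over all genes 2.15% were. The triglyceride lipase gene Pnpla2 had signals of 6.85, 6.41, 6.28, 6.21 and 6.26 in Tg DEX arrays, against 6.73, 6.92, 6.78, 6.81 and 6.53 in wt DEX arrays. Only Tg DEX array 1 reached into the wt DEX range, and the difference of Pnpla2 was -0.35 (-0.66 to -0.04; -0.30 and -0.43 by set; adjusted p = 0.502 in limma). Nfil3, which encodes a transcriptional repressor of the clock, had signals of 4.49, 4.73, 4.51, 4.33 and 3.94 in Tg DEX arrays, against 5.09, 5.01, 4.61, 4.72 and 4.95 in wt DEX arrays. Its groups met only at Tg DEX array 2, and the difference of Nfil3 was -0.48 (-0.90 to -0.05; -0.33 and -0.70 by set; adjusted p = 0.502 in limma).

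In replicates 1 to 3, 6 targets were lower in Tg DEX arrays at an unadjusted p under 0.05 and 0 were higher, where 2.49% of all genes were lower and 2.29% higher. They were Pim3, Cebpb, Fam107a, Errfi1, Nfil3 and Rhob, and their smallest adjusted p was 0.949 in limma. Cebpb, which encodes a bZIP transcription factor of inflammation and fat metabolism, had signals of 4.53, 4.41 and 4.16 in Tg DEX arrays 1 to 3, against 4.70, 5.18 and 4.94 in wt DEX arrays 1 to 3. In the other set Cebpb had 5.90 and 4.07 in Tg DEX arrays and 3.53 and 4.12 in wt DEX arrays, so that the order was lost. Fam107a, a stress-induced gene whose product binds actin, had signals of 8.40, 8.36, 8.62, 8.45 and 8.09 in Tg DEX arrays, against 8.86, 8.84, 8.74, 8.83 and 8.22 in wt DEX arrays. Its Tg DEX arrays were the lower ones within the first set, and wt DEX array 5 fell among the Tg DEX values. Errfi1, which encodes an inhibitor of the epidermal growth factor receptor, differed by -0.25 in the first set and 0.33 in the second. The small GTPase gene Rhob differed by -0.32 and 0.21. Without overlap in replicates 1 to 3, 9 targets were lower and 1 higher, against 4.91% and 4.53% of all genes.

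Over all arrays 2 of the 38 targets were higher at an unadjusted p under 0.05 and 3 were lower, against 5.87% and 3.91% of all genes. The 2 higher ones, Klf9 and Arrdc3, rested on replicates 4 and 5. Klf9, a Krüppel-like transcription factor gene, had signals of 7.09, 7.15, 7.19, 7.98 and 8.11 in Tg DEX arrays, against 7.18, 6.99, 7.31, 6.82 and 6.28 in wt DEX arrays. The groups overlapped in the first set and lay more than 1 log2 unit apart in the second. The difference of Klf9 was 0.59 ± 0.24 (adjusted p = 0.502 in limma), with -0.02 and 1.49 in the sets. The arrestin-domain gene Arrdc3 showed the same form, with 7.99, 7.80, 7.69, 8.95 and 8.88 in Tg DEX arrays and 7.92, 7.82, 7.98, 7.61 and 7.38 in wt DEX arrays. Pdk4, which encodes the kinase that shuts off pyruvate dehydrogenase, was the target with the most positive difference in replicates 1 to 3, with 6.29, 6.30 and 6.24 in Tg DEX arrays 1 to 3 against 6.07, 5.97 and 5.73 in wt DEX arrays 1 to 3. The 3 Tg DEX arrays lay above the 3 wt DEX arrays, and in replicates 4 and 5 the Pdk4 difference was -0.18.

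A score for each list, the mean over its members of the log2 deviation from the mean of 20 arrays, shows the arrays one by one. The target score was 0.31, 0.25, 0.28, 0.33 and 0.41 in Tg DEX arrays 1 to 5, against 0.52, 0.44, 0.31, 0.18 and 0.05 in wt DEX arrays. Within the first set the wt DEX arrays lay above the Tg DEX arrays, wt DEX array 3 only just (0.313 against 0.310 in Tg DEX array 1). Within the second set they lay below them. Each set had been centred on its own, so levels of the score cannot be compared between the sets. On the saline arrays the target score ran from -0.47 to -0.21 in Tg SAL and from -0.34 to -0.18 in wt SAL, below all 10 Dex arrays. Because the list was chosen with earlier results of these data known, this separation from saline is a description only.

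**Figure D2:**
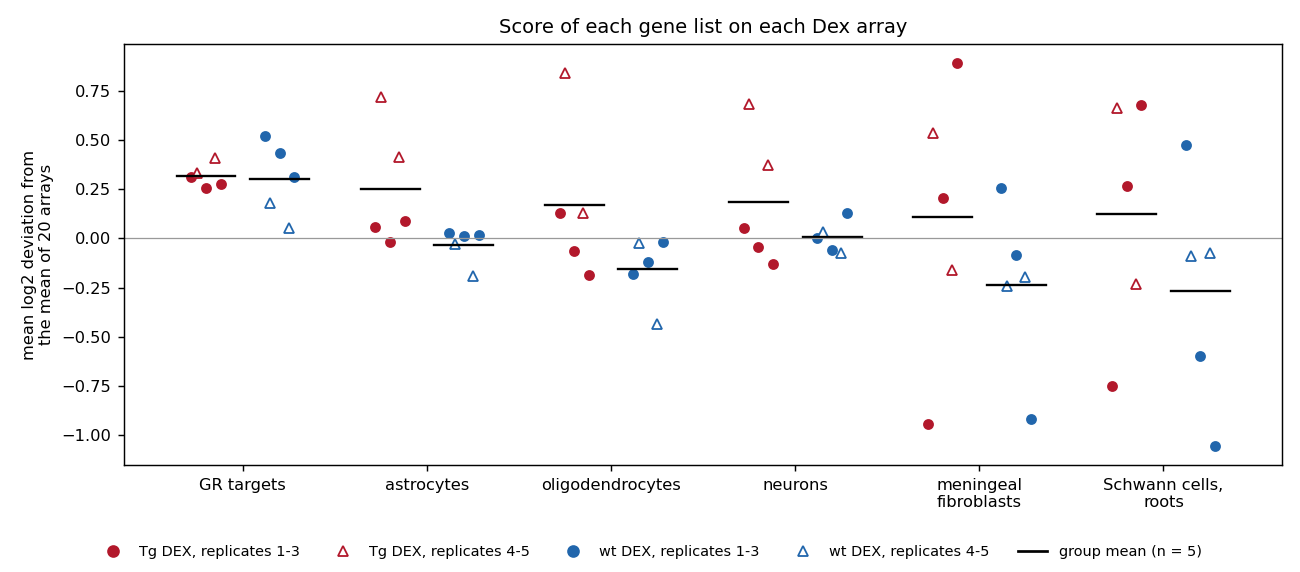
Mean log2 deviation from the mean of 20 arrays over the members of 6 gene lists, for each Tg DEX array (red, left of each pair) and wt DEX array (blue, right). Circles are replicates 1 to 3, triangles replicates 4 and 5, and bars the mean of 5 arrays. The astrocyte, oligodendrocyte and neuron scores are highest on Tg DEX array 4, with 0.72, 0.84 and 0.68.

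The genes leading the comparison over all arrays are named as not significant, since each had an adjusted p of 0.502. Gabra2, which encodes the alpha 2 subunit of the GABA-A receptor, had signals of 8.08, 8.10, 8.29, 9.78 and 8.60 in Tg DEX arrays, against 7.40, 7.28, 7.74, 7.33 and 6.77 in wt DEX arrays. Every Tg DEX array lay above every wt DEX array, and the difference of Gabra2 was 1.26 ± 0.30 log2 (2.40-fold; 95% interval 0.63 to 1.89), with 0.68 and 2.14 in the sets. Irf9, which encodes the DNA-binding subunit of the interferon-stimulated factor, had signals of 5.52, 5.85, 6.48, 5.85 and 6.66 in Tg DEX arrays, against 5.14, 5.34, 5.33, 5.18 and 5.38 in wt DEX arrays. The lowest Tg DEX array was above the highest wt DEX array, with a difference of Irf9 of 0.80 ± 0.20 and 0.68 and 0.98 in the sets. S1pr1, a receptor gene for sphingosine 1-phosphate, had signals of 7.28, 7.33, 7.15, 7.58 and 7.82 in Tg DEX arrays, against 6.83, 6.83, 6.88, 6.49 and 5.99 in wt DEX arrays, also with no overlap. The S1pr1 difference was 0.83 ± 0.20, with 0.40 and 1.46 in the sets. Hps4, a gene for biogenesis of lysosome-related organelles, had signals of 4.69, 4.27, 4.43, 4.43 and 4.04 in Tg DEX arrays, against 3.69, 3.61, 3.73, 3.88 and 3.98 in wt DEX arrays. Its difference of 0.60 ± 0.14 came with narrow gaps in the second set, 0.79 and 0.31 by set. The other leading genes on the higher side were Olfr1342, an olfactory receptor gene (0.70, with 0.72 and 0.67 by set), and Mir1933 (0.74, with 0.77 and 0.68). The lipid droplet gene Tmem159 (0.75) had 0.40 and 1.27 by set, and the ectonucleotidase gene Enpp3 (0.62) had 0.46 and 0.85. The F-box gene Fbxo28 (0.77) had 0.30 and 1.47, and Mir3961 (0.86) had 0.47 and 1.45.

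On the lower side Adra2c, which encodes the alpha 2C adrenergic receptor, had signals of 4.72, 4.60, 4.49, 4.53 and 5.11 in Tg DEX arrays, against 5.42, 5.56, 5.21, 4.99 and 5.68 in wt DEX arrays. Its groups were apart in replicates 1 to 3 and crossed in replicates 4 and 5. The difference of Adra2c was -0.68 ± 0.16 over all arrays and -0.80 ± 0.12 in replicates 1 to 3, where its adjusted p in limma was 0.201. Dusp18, a dual-specificity phosphatase gene, had signals of 4.33, 4.42, 4.68, 4.80 and 4.45 in Tg DEX arrays, against 5.18, 5.55, 5.46, 5.98 and 4.84 in wt DEX arrays. All Tg DEX arrays of Dusp18 lay below all wt DEX arrays, by -0.86 ± 0.19, with -0.92 and -0.78 in the sets. Sh3gl1, which encodes an endophilin of endocytosis, had signals of 6.29, 6.03, 6.40, 5.43 and 5.86 in Tg DEX arrays, against 6.82, 6.62, 6.58, 6.86 and 6.57 in wt DEX arrays, with no overlap and a difference of -0.69 ± 0.17 (-0.44 and -1.06 by set). The remaining leading genes on the lower side were the sulfotransferase gene Sult1c1 (-1.07), Nat9 (-0.74), the syntenin gene Sdcbp2 (-0.74), the vomeronasal receptor gene Vmn2r125 (-1.62), Pim3, the immunoglobulin segment Igkj1 (-0.94) and the ubiquitin ligase gene Marchf9 (-0.74). By set Sult1c1 had -0.61 and -1.76, Nat9 -0.55 and -1.01, and Sdcbp2 -0.43 and -1.21. Igkj1 had -0.56 and -1.51, and Marchf9 -0.46 and -1.15. By set the Vmn2r125 difference was -0.57 and -3.20.

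Tg DEX and wt DEX arrays did not overlap within either array set, in the same direction, for 270 genes that were higher (1.22%) and 207 that were lower (0.933%). The 5 of each direction with the largest smaller of the pair of within-set differences were chosen by that pattern, so their separation is a description. Higher were Mir3070b, Gabra2, Mir1933, Irf9 and Olfr1342, and lower were LOC100861738, Dusp18, the carboxylesterase gene Ces1c, Nlrp4a and Mir5098. Mir3070b had signals of 5.40, 5.88, 5.99, 5.93 and 6.04 in Tg DEX arrays, against 5.10, 5.26, 4.65, 5.46 and 4.80 in wt DEX arrays. Mir1933 had signals of 5.43, 5.49, 5.28, 5.95 and 5.06 in Tg DEX arrays, against 5.03, 4.34, 4.51, 5.03 and 4.62 in wt DEX arrays. Both had every Tg DEX array above every wt DEX array of the same set, with differences by set of 0.75 and 0.86 for Mir3070b and of 0.77 and 0.68 for Mir1933. Mir5098 had signals of 3.82, 4.14, 4.13, 4.33 and 4.15 in Tg DEX arrays, against 4.51, 4.87, 4.83, 5.47 and 4.65 in wt DEX arrays. All 5 Tg DEX arrays of Mir5098 were the lower ones, and under saline its genotype difference was -0.66, near the -0.75 under Dex. Olfr1342 and all 5 genes on the lower side had mean signals below the median of all genes, 4.68.

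**Figure D3:**
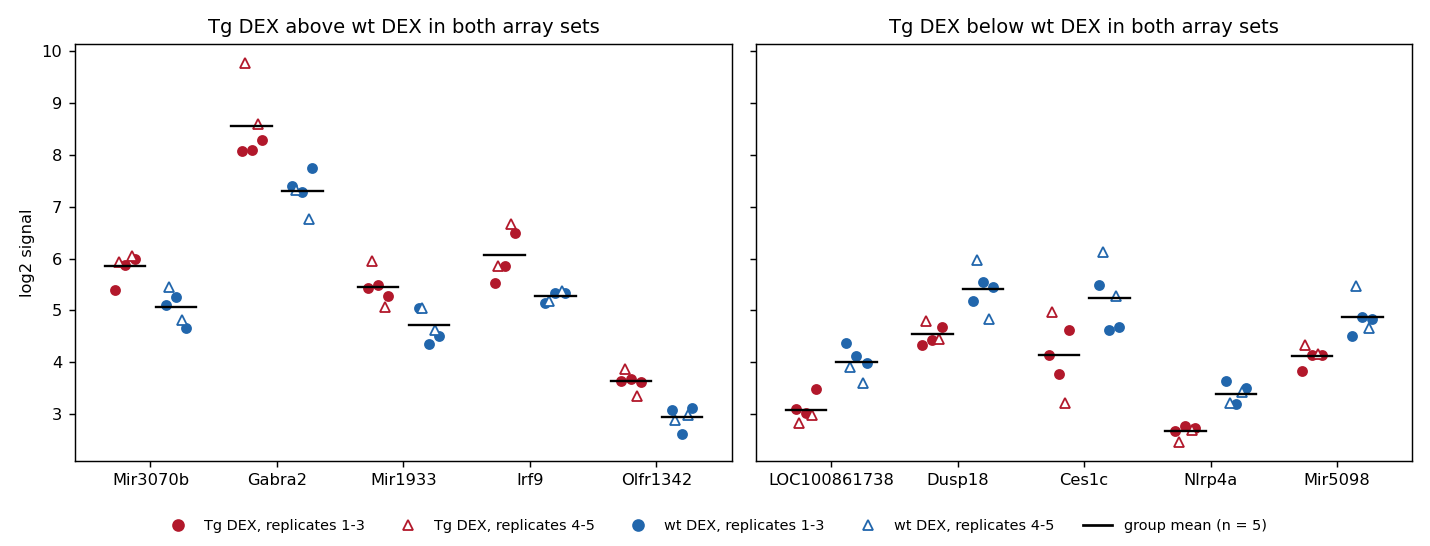
Log2 signal of 10 genes on each Tg DEX array (red, left of each pair) and wt DEX array (blue, right), with circles for replicates 1 to 3, triangles for replicates 4 and 5 and bars for the mean of 5 arrays. The genes were chosen because the groups do not overlap within either array set. Gabra2 lies between 8.08 and 9.78 in Tg DEX and between 6.77 and 7.74 in wt DEX.

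Replicates 1 to 3, the quieter set, had other leading genes, none of them significant. Gbp10, a guanylate-binding protein gene of the interferon response, had signals of 7.55, 7.55 and 7.53 in Tg DEX arrays 1 to 3, against 6.12, 6.58 and 6.47 in wt DEX arrays 1 to 3. The difference of Gbp10 was 1.15 ± 0.16 log2 in that set (2.22-fold; n = 3 per group; limma adjusted p = 0.201). In the other set it had 7.04 and 7.45 in Tg DEX arrays and 7.32 and 7.57 in wt DEX arrays, so the higher group was now wt DEX, by a difference of -0.20. Sox2, a transcription factor gene of neural progenitors and astrocytes, had signals of 7.31, 7.44 and 7.27 in Tg DEX arrays 1 to 3, against 6.71, 6.64 and 6.73 in wt DEX arrays 1 to 3. Its order also turned in the other set, with 7.99 and 6.67 in Tg DEX and 8.69 and 7.79 in wt DEX. Over all arrays the Sox2 difference was 0.02 (-0.78 to 0.83). The others on the higher side were Hps4, Plekho2 (0.75 in that set, 0.01 in the other) and the DNA repair gene Fancc (0.79 and 0.22). On the lower side stood Adra2c, the polycomb gene Cbx2 (-0.86 and -0.06), Gm16677 (-0.92 and 0.25), the class I histocompatibility gene H2-Q5 (-1.09 and -1.02) and the trace amine receptor gene Taar4 (-0.82 and 0.07). A second, dimmer probe set of H2-Q5 gave 0.08 in replicates 1 to 3, and that of Gm16677 gave -0.17.

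The genotype difference under Dex was itself different between the array sets for 1418 of 22180 genes (6.39%; limma adjusted p under 0.05). It was higher in replicates 4 and 5 for 1033 genes (4.66%) and lower for 385 (1.74%). With a weight for each array set, which allows for the larger spread of replicates 4 and 5, the count was 706 (3.18%), with 581 higher (2.62%) and 125 lower (0.564%). The unequal directions depended on the scaling: with quantile normalization 336 genes were higher in replicates 4 and 5 and 290 lower, and with cyclic loess 517 were higher and 495 lower. All genes were split by mean signal into 5 classes of 4436, and 700 of the 1033 came from the brightest class, with mean signals from 6.43 to 10.56. In that class the median difference was -0.01 in the first set and 0.38 in the second, and in the dimmest class it was -0.02 in both. Relative to the mean of 20 arrays the brightest class had a median deviation of 0.46 on Tg DEX array 4 and 0.22 on Tg DEX array 5, against -0.10 to 0.01 on the other 8 Dex arrays. The part of this dependence on signal in the single-gene differences was not tested, beyond the values under other normalizations given here and with the lists.

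**Figure D4:**
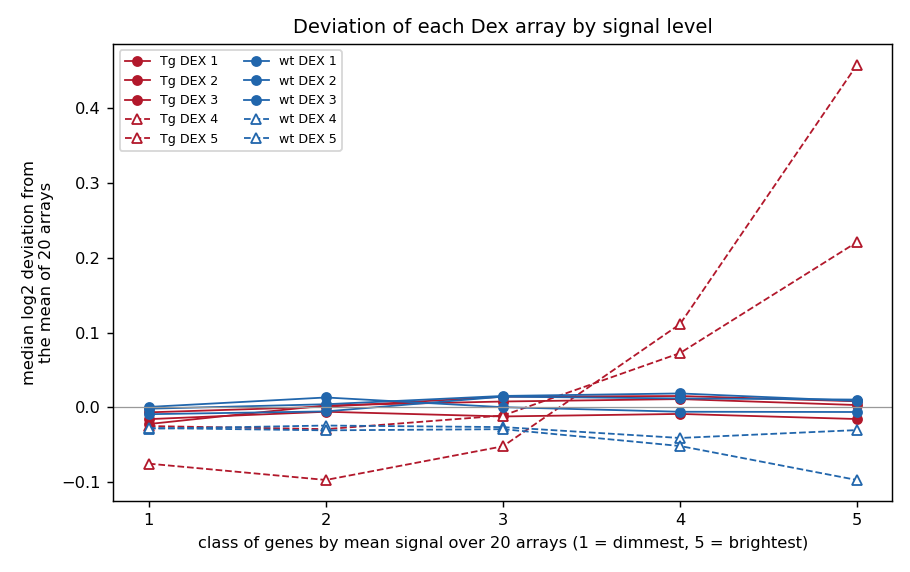
Median log2 deviation from the mean of 20 arrays in each of 5 equal classes of genes by mean signal, for the 5 Tg DEX arrays (red) and the 5 wt DEX arrays (blue). Filled circles with solid lines are replicates 1 to 3, and open triangles with dashed lines are replicates 4 and 5. Tg DEX arrays 4 and 5 reach 0.46 and 0.22 in the brightest class.

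The 5 genes with the smallest p for this difference between sets were Mir2137, Klhl24, Kpna3, Brd8 and Ndufc2. Mir2137 had signals of 6.05, 5.72, 6.11, 8.73 and 8.03 in Tg DEX arrays, against 6.03, 5.86, 6.43, 5.18 and 5.32 in wt DEX arrays. The groups overlapped in replicates 1 to 3, with a difference of -0.15, and lay 3.13 log2 apart in replicates 4 and 5 (adjusted p for the difference between sets 0.00045 in limma, and 0.0062 with a weight per set). Klhl24, which encodes a ubiquitin ligase adaptor, had signals of 6.76, 6.84, 6.89, 8.62 and 8.29 in Tg DEX arrays, against 6.84, 6.83, 6.88, 6.42 and 6.05 in wt DEX arrays. It showed the same form, with -0.02 and 2.22 in the sets. The nuclear import gene Kpna3 had 0.04 and 2.14, the bromodomain gene Brd8 -0.19 and 1.95, and Ndufc2, which encodes a subunit of respiratory complex I, -0.03 and 1.85.

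Among the Dex arrays, astrocyte markers scored highest on Tg DEX arrays 4 and 5 and lowest on wt DEX array 5. The saline arrays of replicates 4 and 5 scored lower still, from -0.280 to -0.194, against -0.192 on wt DEX array 5. Each set had been centred on its own, so these scores are relative to the other arrays of the set. Of 24 measured markers 22 had a positive difference over all arrays, 7 with an unadjusted p under 0.05 (5.87% of all genes on that side), 0 were called, and the median was 0.29 log2. The median was 0.03 in replicates 1 to 3, 0.53 in replicates 4 and 5, and -0.01 without Tg DEX arrays 4 and 5. With quantile normalization the median over all arrays was 0.10 and with cyclic loess 0.11. The astrocyte score was 0.06, -0.02, 0.09, 0.72 and 0.42 in Tg DEX arrays, against 0.03, 0.01, 0.02, -0.03 and -0.19 in wt DEX arrays. Aqp4, the water channel gene of astrocyte endfeet, had signals of 8.95, 8.92, 8.83, 9.48 and 9.37 in Tg DEX arrays, against 8.71, 8.72, 8.72, 8.72 and 8.37 in wt DEX arrays. It was the 1 astrocyte marker of 24 apart in both sets, where 1.22% of all genes were apart and higher. The difference of Aqp4 was 0.46 ± 0.15 (0.18 and 0.88 by set; adjusted p = 0.502 in limma). Gja1, which encodes connexin 43, had signals of 8.35, 8.36, 8.46, 9.40 and 8.92 in Tg DEX arrays, against 8.20, 8.38, 8.21, 7.79 and 8.13 in wt DEX arrays. Its groups touched only in the first set, where the difference was 0.12. Mlc1, an astrocyte membrane protein gene, had 0.05 and 1.73 in the sets, and the amino acid transporter gene Slc7a10 0.06 and 1.86.

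The jump in replicates 4 and 5 was shared by lists of other cell types. Oligodendrocyte markers (14 measured) had a median of 0.31 over all arrays, 0.01 in the first set and 0.71 in the second. Neuron markers (18 measured) had 0.22, -0.06 and 0.61 in the same order. With quantile normalization the medians over all arrays were 0.11 and 0.05, and without Tg DEX arrays 4 and 5 they were 0.03 and -0.10. The myelin gene Mag had signals of 7.90, 7.50, 7.41, 9.12 and 8.63 in Tg DEX arrays, against 7.47, 7.51, 7.75, 7.43 and 6.94 in wt DEX arrays. Slc17a6, the vesicular glutamate transporter gene of excitatory neurons, had 7.88, 8.12, 7.94, 9.23 and 9.03 in Tg DEX arrays, against 8.10, 7.99, 8.07, 8.02 and 7.42 in wt DEX arrays. For both the groups mixed in the first set and parted in the second. Endothelial markers (19 measured) had medians of 0.25, 0.10 and 0.37 over all arrays and by set, and mural cell markers (12 measured) 0.02 (-0.03 with quantile normalization), 0.08 and 0.14. Ependymal markers (11 measured) had -0.15, -0.03 and -0.10, and oligodendrocyte precursor markers (10 measured) -0.10, -0.03 and -0.14. With quantile normalization the medians over all arrays were 0.09 for endothelial, -0.10 for ependymal and -0.21 for precursor markers. Without Tg DEX arrays 4 and 5 they were 0.00, -0.01 and -0.14.

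**Figure D5:**
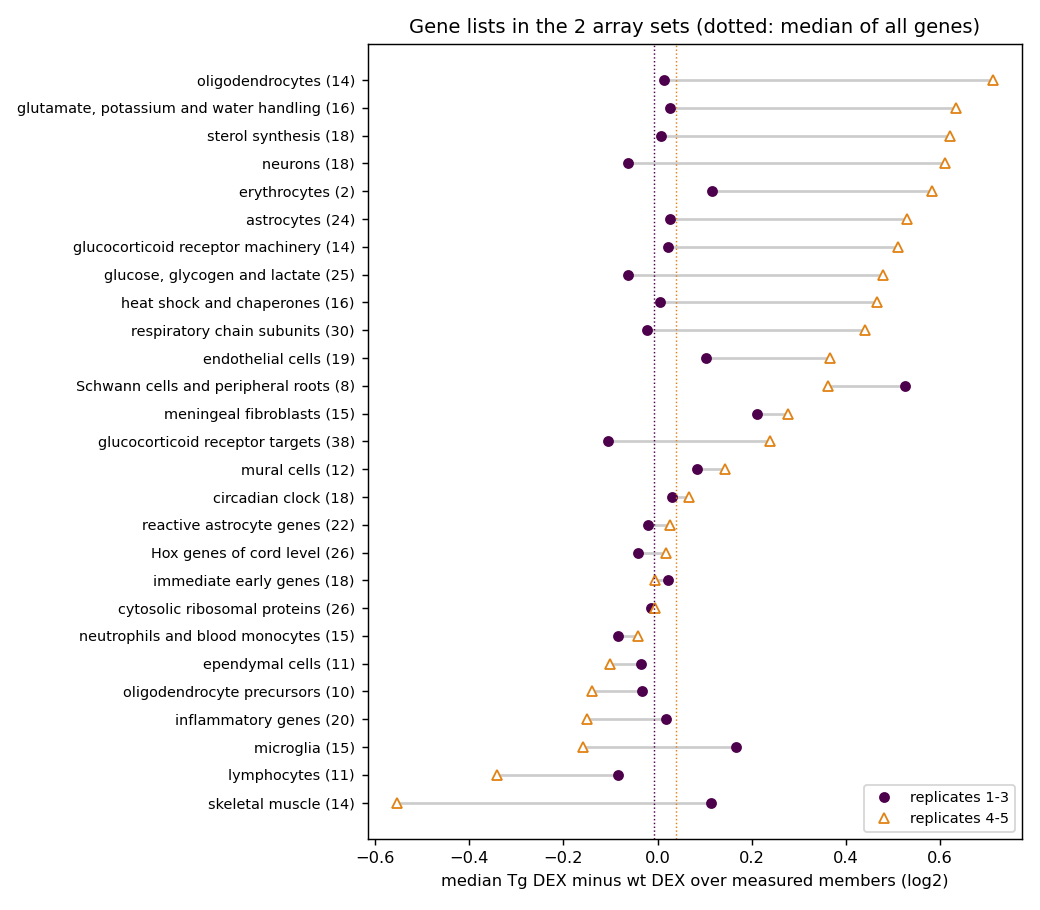
Median Tg DEX minus wt DEX difference in log2 signal for 27 gene lists, in replicates 1 to 3 (filled circles) and replicates 4 and 5 (open triangles), with the number of measured members in brackets. Dotted lines mark the medians of all genes, -0.01 and 0.04. The oligodendrocyte list moves most to the right, with 0.01 and 0.71.

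Lists of functions that astrocytes serve, or share with other cells, followed the same division by array set, except the ribosomal protein genes. The 16 genes of glutamate, potassium and water handling had a median of 0.29 over all arrays, and 0.03 and 0.63 in the sets. Over all arrays 5 had an unadjusted p under 0.05 on the higher side, where 5.87% of all genes did. In replicates 1 to 3, 0 did, against 2.29% of all genes. Slc1a3, the glutamate transporter gene, had a difference of 0.68 (0.11 and 1.54 by set). Slc7a11, the cystine-glutamate exchanger gene, had signals of 3.63, 5.53, 6.00, 5.81 and 5.31 in Tg DEX arrays, against 4.65, 3.88, 3.84, 4.88 and 4.79 in wt DEX arrays. Its Tg DEX array 1 was the lowest of the 10, the other 4 were the highest, and a second, dimmer probe set gave -0.05. For 25 genes that handle glucose, glycogen and lactate the median was 0.14, with -0.06 and 0.48 by set. Pfkm, a phosphofructokinase gene of glycolysis, had differences of 0.06 and 2.10, the brain glycogen phosphorylase gene Pygb 0.09 and 1.23, and the monocarboxylate transporter gene Slc16a1 0.11 and 1.53. The 18 genes of sterol synthesis had a median of 0.28, with 0.01 and 0.62 by set. Hmgcs1, which makes the precursor of mevalonate, had 8.45, 8.48, 8.49, 9.39 and 9.02 in Tg DEX arrays, against 8.34, 8.31, 8.45, 8.15 and 8.17 in wt DEX arrays, and its groups were close in the first set and parted in the second. The 30 respiratory chain subunits had a median of 0.19, with -0.02 and 0.44 by set, and Ndufv1 of complex I had 0.08 and 1.53. The 26 ribosomal protein genes had a median of 0.01 (-0.05 with quantile normalization), with -0.01 in both sets. No member of these lists was called. With quantile normalization the medians over all arrays were 0.07 for glutamate, potassium and water handling, 0.03 for glucose, 0.19 for sterol synthesis and 0.07 for the respiratory chain. Without Tg DEX arrays 4 and 5 the first of these medians was -0.0001, the glucose median -0.07, the sterol median 0.01 and the respiratory chain median -0.04.

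The partners of the receptor had a median near 0 in replicates 1 to 3. The 14 measured genes of the receptor machinery had a median of 0.23 over all arrays, 0.02 in the first set and 0.51 in the second. Over all arrays the machinery median was 0.11 with quantile normalization, 0.14 with cyclic loess and 0.04 without Tg DEX arrays 4 and 5. Nrip1, which encodes a corepressor of nuclear receptors, had signals of 6.13, 5.96, 6.03, 7.93 and 7.03 in Tg DEX arrays, against 5.84, 6.08, 5.89, 5.42 and 5.22 in wt DEX arrays. Its values mixed in the first set and differed by 2.16 in the second. The coactivator gene Ncoa1 had -0.07 and 1.25 by set, and Hsp90aa1, which encodes the chaperone that holds the free receptor, 0.00 and 0.61. The mineralocorticoid receptor gene Nr3c2, whose product binds the same hormones, had a difference of 0.41 (-0.04 to 0.86), with 0.20 and 0.73 by set and 0.04 over all arrays from a second, dimmer probe set.

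Genes of inflammation, the clock and rapid stimulation were spread about 0. The 20 inflammatory genes had a median of -0.10, with 0.02 and -0.15 by set, and over all arrays it was -0.06 with quantile normalization and 0.04 without Tg DEX arrays 4 and 5. The list had 9 higher and 11 lower. In each direction 1 had an unadjusted p under 0.05, where 5.87% of all genes were higher and 3.91% lower. Icam1, an adhesion molecule gene, had signals of 3.54, 3.67, 3.88, 3.66 and 3.47 in Tg DEX arrays, against 2.90, 3.11, 2.91, 3.47 and 3.66 in wt DEX arrays. Its groups were apart in replicates 1 to 3 by 0.72 and level in replicates 4 and 5 at 0.00. Socs3, an inhibitor of cytokine signalling, had a difference of -0.60, with -0.38 and -0.94 by set. The 22 reactive astrocyte genes had a median of 0.10 (0.05 with quantile normalization), with -0.02 and 0.03 by set. Among them Timp1, an inhibitor of metalloproteinases, had signals of 3.57, 3.27, 3.51, 2.88 and 2.73 in Tg DEX arrays, against 3.90, 3.67, 3.61, 4.18 and 3.90 in wt DEX arrays, all Tg DEX arrays being the lower ones. The Timp1 difference was -0.66 ± 0.19 (adjusted p = 0.502 in limma), with -0.27 and -1.23 by set. Serpina3n, a protease inhibitor gene of reactive astrocytes, had -0.14 and 1.89. The 18 clock genes had a median of 0.01 (-0.09 with quantile normalization, -0.11 with cyclic loess), with 0.03 and 0.07 by set, and Nr1d2, a repressor of the clock, had -0.07 and 1.90. The 18 immediate early genes had a median of -0.04 (-0.02 with quantile normalization), with 0.02 and -0.01 by set. None had an unadjusted p under 0.05 over all arrays (9.78% of all genes). The 16 heat shock and chaperone genes had a median of 0.23, with 0.01 and 0.47 by set. Over all arrays it was 0.02 with quantile normalization or cyclic loess and 0.01 without Tg DEX arrays 4 and 5.

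Markers of the meninges and nerve roots varied widely from animal to animal in both groups, and the remaining lists are given after them. Meningeal fibroblast markers (15 measured) had scores of -0.94, 0.20, 0.89, 0.54 and -0.16 in Tg DEX arrays, against 0.25, -0.08, -0.92, -0.24 and -0.20 in wt DEX arrays. Ogn, a proteoglycan gene of the meninges, had signals of 4.69, 7.62, 8.13, 10.71 and 6.11 in Tg DEX arrays, against 7.69, 6.48, 4.05, 5.21 and 5.40 in wt DEX arrays. The values of both groups ran over several log2 units, and the difference of 1.69 had an interval from -0.03 to 3.40. The 8 measured markers of Schwann cells and nerve roots had scores from -0.75 to 0.68 in Tg DEX arrays and from -1.06 to 0.47 in wt DEX arrays, with a median difference of 0.40 under Dex and -0.58 under saline. Lymphocyte markers (11 measured) had a median difference of -0.18 (-0.03 without Tg DEX arrays 4 and 5), with -0.09 and -0.34 by set. Cd3e, a T cell receptor subunit gene, had signals of 4.08, 4.02, 4.32, 2.84 and 3.80 in Tg DEX arrays, against 4.74, 4.41, 4.18, 5.22 and 4.72 in wt DEX arrays, with overlap in the first set and none in the second. Microglia markers (15 measured) had a median of -0.03 (0.02 with quantile normalization), with 0.17 and -0.16 by set. Over all arrays 7 of them were higher and 8 lower. The fractalkine receptor gene Cx3cr1 had 0.51 (0.33 and 0.78 by set) and Itgam -0.29 (-0.18 and -0.45). Neutrophil and monocyte markers (15 measured) had a median of -0.10 (-0.03 without Tg DEX arrays 4 and 5), with -0.08 and -0.04 by set. Skeletal muscle markers (14 measured) had a median of -0.13 over all arrays, and its sign turned between the sets, with 0.11 and -0.55. Without Tg DEX arrays 4 and 5 the muscle median was 0.01. Hox genes of cord level (26 measured) had a median of -0.08 (-0.12 with quantile normalization, -0.15 with cyclic loess), with -0.04 and 0.02 by set. The 2 measured erythrocyte markers had differences of 0.48 (Bpgm, 0.07 and 1.09 by set) and 0.13 (Slc4a1, 0.16 and 0.07). The part of these other cells in the single-gene differences was not tested.

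The genotype difference under Dex was set against that under saline gene by gene, and no interaction passed the test. The 5 genes with the smallest p had adjusted p-values of 0.923 to 0.924 in limma. Tmem189, a gene of plasmalogen synthesis, had signals of 6.06, 5.48, 4.96, 5.98 and 4.89 in Tg DEX arrays, against 4.80, 4.44, 5.06, 4.96 and 4.49 in wt DEX arrays, and 4.62, 4.48, 4.62, 4.09 and 5.01 in Tg SAL arrays, against 4.81, 5.59, 6.08, 5.84 and 5.41 in wt SAL arrays. The difference was 0.73 under Dex (0.74 and 0.71 by set) and -0.98 under saline. The predicted gene 1700018F24Rik stood at -0.69 under Dex (-0.68 and -0.69 by set) and 0.68 under saline, and Olfr372 at -0.74 (-0.24 and -1.50) and 0.66. The major urinary protein gene Mup3 stood at 0.48 under Dex (-0.09 and 1.35 by set) and -1.92 under saline. Mmp7, a metalloproteinase gene, stood at 0.76 (0.62 and 0.98) and -0.73, with -0.19 under Dex from a second, dimmer probe set of Mmp7. For the receptor targets the median genotype difference was 0.01 under Dex and -0.06 under saline.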

How the data were processed

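RNA of 20 mouse spinal cords was measured on 1 array each. The authors deposited 1 table of log2 signals per probe set, and the submitters' processing notes name oligo. Its version, the normalization, build and annotation are not given in the sources used here. All arrays had a mean of 4.64, and for each probe set the means of replicates 1 to 3 and of replicates 4 and 5 were equal (largest difference 4.5e-09), so values had been centred within these sets. Of 41345 probe sets, 23521 had 1 gene symbol, 1814 several and 16010 none. The probe set with the highest mean was kept for each of 22180 genes, 1082 of which had several, with no filter on dim probe sets. The number of arrays limits the precision.

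Group means were fitted to 20 arrays with limma 3.58.1 in R 4.3.3, with the array set as fixed block (15 residual degrees of freedom), and to the 12 arrays of replicates 1 to 3 alone (8). Two-sided p-values were adjusted over all genes after Benjamini and Hochberg. Same-numbered Tg DEX and wt DEX arrays had deviations correlated at -0.11 to 0.07, so numbers were not used as pairs. The members and the 27 gene lists (500 genes, 452 measured) were chosen with earlier results of these data known. Named were the 10 genes of smallest p in each direction, 5 in replicates 1 to 3, 5 in each direction apart in both sets, 5 each for the interaction and the difference between sets, up to 4 per list by p, and 10 fixed genes. Other receptor targets (Cebpb, Fam107a, Errfi1, Rhob, Arrdc3 and Pdk4) were chosen after their values were seen. The alternatives were other normalizations, filters, probe set rules, weights, blocks, thresholds and leaving out each array.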

Additional observations from a re-analysis of the deposited data

Results flagged for a closer look

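The genotype difference under Dex differed between replicates 1 to 3 and replicates 4 and 5 for 1418 genes, by a test of the difference itself in limma. The count was 706 with a weight per array set and 97 with this weight and quantile normalization. Among the Dex values of leading and fixed genes and of list scores, 160 groups of 5 arrays were examined for an array far from the rest, and 10 had a gap beyond Dixon's 95% critical value, where chance flags about 1 in 20. In Tg DEX arrays these were Gbp10 (array 4 lowest, 7.04), Mir3070b (array 1 lowest, 5.40), Tmem159 (array 5 highest, 6.53) and the score of the receptor machinery (array 4 highest, 0.764). In wt DEX arrays they were Cbx2 (array 5 lowest, 3.59), Enpp3 (array 1 highest, 4.67), Slc25a13 (array 5 lowest, 5.06), the Hox score (array 3 lowest, -0.081), the astrocyte score (array 5 lowest, -0.192) and the ependymal score (array 2 highest, 0.183).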

How the results depend on the processing

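The count of 0 genes between Tg DEX and wt DEX held under each alternative run, including the replicate block (0 called, 1958 genes at an unadjusted p under 0.05 in limma). With the replicate block the interaction (0 called, 995) and replicates 1 to 3 (0 called, 1081) were also unaltered, and the replicate numbers were not found to pair the samples. Without wt SAL replicate 1 the interaction and the saline comparison each called 1 gene, Mup3, and without wt SAL replicate 3 replicates 1 to 3 called 1 gene, Gbp10, so these counts ranged from 0 to 1. The count of 1418 genes whose difference varied between the array sets was 501 at an adjusted p under 0.01, 626 with quantile normalization, 1012 with cyclic loess, 706 with a weight per array set and 97 with both, the weight being chosen after seeing the data. It ranged from 932 without wt DEX replicate 3 to 2627 without Tg DEX replicate 5, and the cause was not tested. Of 153 named genes 110 kept the sign of the Tg DEX minus wt DEX difference under all alternatives run for them. The alternatives numbered 32, or 31 for the 34 genes that the filter on dim probe sets removed. Among the 110 were the 20 leading genes and the 10 genes apart in both sets. These had been chosen on the same arrays by small p or by lack of overlap, so their kept signs were largely fixed by that choice. Of the 153 genes 0 were called under any alternative (lowest adjusted p 0.0965 in limma). The 95% interval of a typical gene reached 0.42 log2 to either side before adjustment for the number of genes. After adjustment larger differences also went uncalled, such as 1.26 for Gabra2 and -1.62 for Vmn2r125. The lack of calls therefore does not show that differences above 0.42 log2 are absent.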
